A study of Drosophila melanogaster with 6 samples.

Results

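The 10 genes described here encode the core of epithelial polarity and of the cell junctions in Drosophila: the apical genes crb and sdt, the Par genes baz and par-6, the basolateral genes dlg1, scrib and l(2)gl, the adherens junction genes shg and arm, and the lateral adhesion gene Fas3. They were chosen by name as rows of the count table whose symbol is one of these, and all 10 were among the 9134 tested of 14233 gene rows. The samples were dorsal cells of the wing imaginal disc, the larval epithelial sheet that forms the wing, taken from wandering third-instar larvae, loosened with trypsin and isolated by flow sorting for transgene expression. In 3 libraries the cells expressed RasV12, a constitutively active Ras, and in 3 control libraries they carried a transgene labelled GFP-i in its place. All animals carried the Ap>Gal4 driver, the UAS-myrT transgene and TubGal80ts, a heat-sensitive Gal4 inhibitor. Larvae of both groups spent 6 days at 18 °C, where the inhibitor works, followed by 3 days at 29 °C, where it does not. About 150000 cells per library were read by 3' mRNA sequencing, which counts tags at transcript ends. The driver restricts expression to dorsal cells, and the labels do not say how many larvae were pooled or whether the replicates came from separate crosses, so p-values measure only the spread between these libraries.

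Epithelial cells sort their surface into an apical and a basolateral domain by mutual exclusion. The Crumbs and Par complexes specify the apical side, the Scribble module of Scrib, Dlg and Lgl specifies the basolateral side, and E-cadherin with its catenins builds the adherens junction at the border between them. In flies, loss of scrib, dlg1 or l(2)gl turns discs into neoplastic growths, and activated Ras is known to cooperate with such a loss. Whether activated Ras alone, with these genes intact, alters their transcript levels is what the comparison measures.

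Libraries held 11070295 to 15581752 counts, and each member had 611 to 16667 counts per library, so counting error alone would give a coefficient of variation of 0.857 to 3.80%. The measured coefficient of variation among 3 replicates ran from 1.09% (arm in RasV12) to 22.5% (shg in GFP-i). Levels are given as CPM, the usual depth-scaled count unit, after TMM scaling, and since a 3' tag count depends on the transcript end, levels of different genes are not ranked against each other. The 8 wing disc and dorsal markers were all detected in every library, among them the driver gene ap at 206 to 267 CPM in RasV12 and 227 to 308 CPM in GFP-i. In RasV12 3 of this list fell: nub from 151 to 12.6 CPM, vg from 107 to 39.3 CPM and hth from 2418 to 1409 CPM. In the same list mirr rose from 128 to 213 CPM, and 4 did not pass. Ras85D, the gene from which RasV12 derives, was at 54.1, 79.9 and 57.6 CPM in RasV12 and 41.2, 38.9 and 41.1 CPM in GFP-i, but whether these tags come from the transgene or the native gene cannot be told apart. Markers of other cells differed too: the summed level of 7 haemocyte markers was 10.5 to 14.1 CPM in RasV12 and 16.8 to 29.6 CPM in GFP-i, with 2 of the 4 tested lower, and with eater at 0 counts in 5 of the 6 libraries and He at 0 in the 3 RasV12 libraries. Of these, Hml, Pxn, He and eater, also picked after the values were seen, summed to 0.936 to 3.53 CPM in RasV12 and 1.05 to 5.18 CPM in GFP-i, with overlap. The 8 muscle precursor markers summed to 1651 to 2364 CPM in RasV12 and 1763 to 2086 CPM in GFP-i, most of it from mbl and how. Of these, twi, Him, htl and zfh1, picked after the values were seen, summed to 7.77 to 12.8 CPM in RasV12 and 36.5 to 56.9 CPM in GFP-i. Over the whole muscle precursor list 3 of 8 fell and none rose, while Mef2, which did not pass, was at 46.7, 47.9 and 53.7 CPM in RasV12 and 35.0, 42.5 and 40.2 CPM in GFP-i. Beside this count and those of the haemocyte and the wing disc and dorsal markers, 5.68% of all tested genes fell and 9.15% rose. The 3 tracheal markers summed to 227 to 305 CPM in RasV12 and 315 to 405 CPM in GFP-i. Most of that sum was vvl, which did not pass, and the tracheal marker that did, btl, rose from 7.91 to 18.1 CPM. The 5 neuron and glia markers summed to 74.2 to 84.1 CPM in RasV12 and 69.2 to 89.2 CPM in GFP-i. Within this sum brp fell from 32.9 to 17.5 CPM and moody rose from 9.95 to 16.1 CPM (edgeR adjusted p = 0.021 for each). The other 3 did not pass. The part of these other cells in the results on the 10 genes was not tested.

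Of the 10 genes, baz and shg rose, Fas3 fell, and 7 did not pass the test (edgeR quasi-likelihood test, adjusted p under 0.05 over all genes tested). On simulated data this test made more false calls than its nominal share, and this limit holds for every call given here. Across the transcriptome 14.8% of tested genes passed, 9.15% higher and 5.68% lower in RasV12, and against that share 3 of only 10 genes is no result about the set. The transcriptome held 836 higher and 519 lower genes, a split that became 615 and 911 when only library totals were used for scaling. The median log2 fold change of the 10 genes was 0.03, beside 0.02 for all tested genes. A positive value was held by 5 of the 10 genes and by 4726 of all 9134 tested. For 4 of the 10 the 3 RasV12 libraries and the 3 GFP-i libraries did not overlap, against 33.6% of all tested genes. The 95% interval of the log2 fold change lay within 1 unit of 0 for 8 of the 10 genes, the exceptions being baz and shg. It did so for 5315 of all 9134 tested, a set that includes genes with far lower counts.

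**Figure D1:**
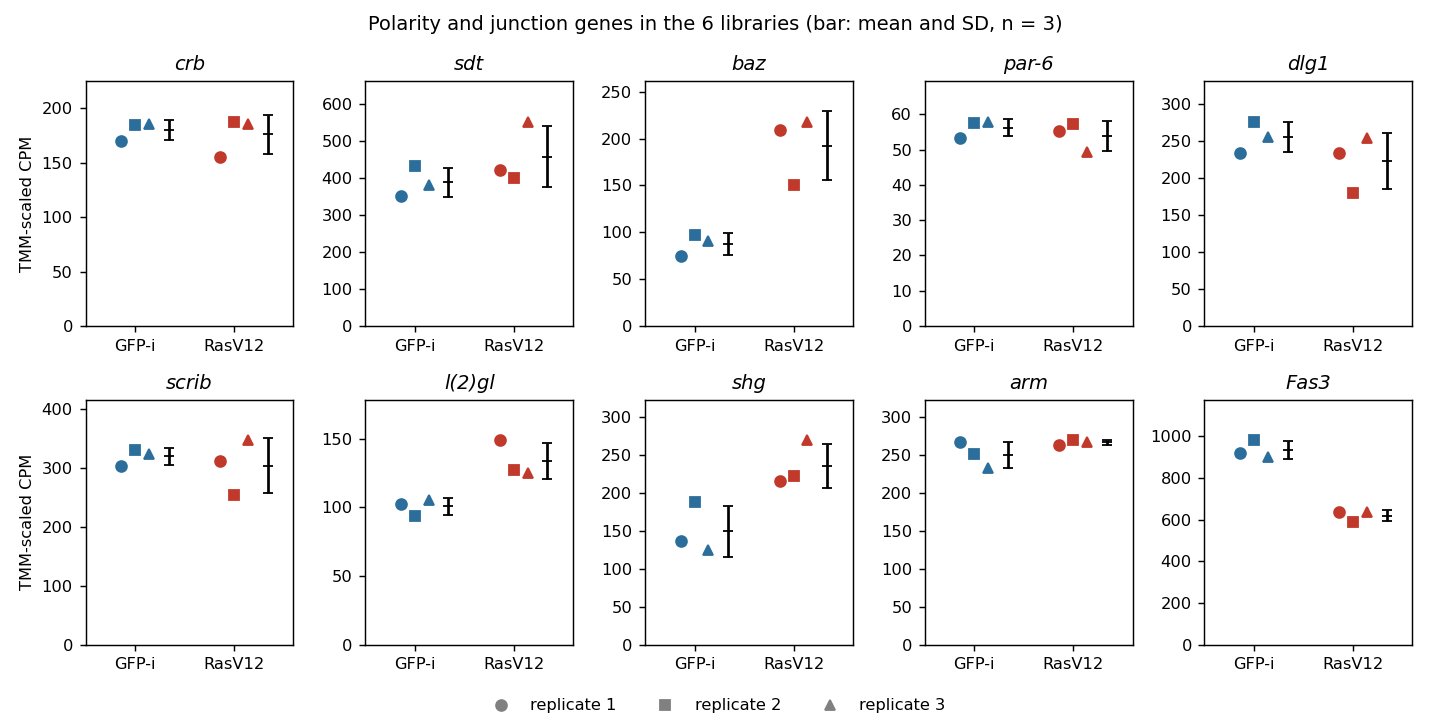
TMM-scaled CPM (vertical axes, each from 0) of the 10 genes in the 3 GFP-i and 3 RasV12 libraries. Symbols give the replicate and bars the mean and SD. The groups are apart for baz, l(2)gl, shg and Fas3 and overlap for the other genes.

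**Figure D2:**
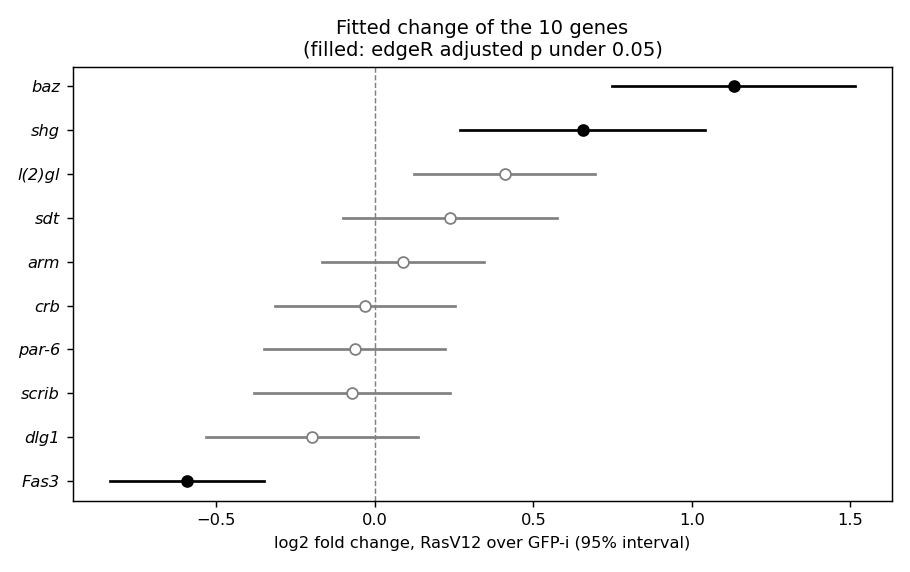
Log2 fold change of each gene, RasV12 over GFP-i, with its 95% interval from the edgeR fit (horizontal axis). Filled points passed an adjusted p of 0.05. Only baz (1.13), shg (0.66) and Fas3 (-0.59) did.

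The apical determinant crb, the transmembrane protein Crumbs (3R, 24295078 to 24314541, dm6), showed no detectable difference. It stood at 155, 187 and 185 CPM in RasV12 replicates 1, 2 and 3 and at 169, 185 and 185 CPM in GFP-i. The groups overlapped, with RasV12 replicate 1 the lowest of all 6 libraries. Its log2 fold change was -0.03 ± 0.13 (SE, n = 3 per group; edgeR adjusted p = 0.903), with a 95% interval of -0.31 to 0.25.

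The scaffold gene sdt (X, 8178549 to 8240474) encodes Stardust, a MAGUK protein that binds the intracellular tail of Crumbs. It was at 423, 400 and 552 CPM in RasV12 and 352, 432 and 381 CPM in GFP-i. RasV12 replicate 3 was the highest of the 6 libraries, and the other RasV12 libraries lay within the range of the controls. The log2 fold change was 0.24 ± 0.15 (SE; edgeR adjusted p = 0.345), with an interval of -0.10 to 0.58.

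The largest change among the 10 genes was that of baz (X, 17160006 to 17200705), which encodes Bazooka, the fly Par-3, a PDZ scaffold that marks the apical border and positions adherens junctions. It reached 209, 150 and 218 CPM in RasV12 against 74.9, 97.4 and 91.1 CPM in GFP-i. The lowest RasV12 library, replicate 2, was still above the highest control. The mean rose from 87.9 ± 11.6 to 193 ± 36.9 CPM (SD, n = 3), a 2.19-fold difference with a 95% interval of 1.68 to 2.86 (log2 fold change 1.13 ± 0.17, SE; edgeR adjusted p = 0.0018). The call held without each library in turn, with adjusted p between 1.0e-04 and 0.020. In the annotation baz shares 3 exon bases with TTLL1A on the other strand, and it contains lncRNA:CR44026, which had 18 counts over all 6 libraries against 11495 for baz.

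Its partner par-6 (X, 17703352 to 17707096), an adaptor that links atypical protein kinase C and Cdc42 to the Par complex, was at 55.2, 57.2 and 49.2 CPM in RasV12 and 53.4, 57.6 and 57.9 CPM in GFP-i. The groups overlapped, and the log2 fold change was -0.06 ± 0.13 (SE; edgeR adjusted p = 0.786), with an interval of -0.35 to 0.22. The intervals of baz and par-6 therefore do not overlap, although the difference between the genes was not tested in the fit. The ratio of baz to par-6 within a library, which does not depend on scaling, was 3.79, 2.63 and 4.43 in RasV12 and 1.40, 1.69 and 1.57 in GFP-i. The mean log2 ratio was higher by 1.19 in RasV12 (exact permutation test, two-sided, p = 0.1, the smallest that 3 against 3 allows). This ratio, like those given further on, was chosen after the values were seen, so its p is no independent support. Against crb, the ratio of baz was 1.35, 0.802 and 1.18 in RasV12 and 0.442, 0.527 and 0.492 in GFP-i, again without overlap (exact permutation p = 0.1).

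Of the basolateral genes, none passed. The MAGUK gene dlg1 (X, 11369665 to 11409776) was at 234, 180 and 253 CPM in RasV12 and 234, 276 and 256 CPM in GFP-i. The groups overlapped, and the log2 fold change was -0.20 ± 0.15 (SE; edgeR adjusted p = 0.433). The 95% interval for dlg1 was -0.53 to 0.14. The gene scrib (3R, 26536350 to 26604051), for the leucine-rich repeat and PDZ protein Scribble, was at 312, 253 and 346 CPM in RasV12 and 304, 330 and 324 CPM in GFP-i. RasV12 replicates 2 and 3 were the lowest and the highest of the 6, and the log2 fold change was -0.07 ± 0.14 (SE; edgeR adjusted p = 0.779), with an interval of -0.38 to 0.24.

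The gene l(2)gl (2L, 9839 to 21376) encodes the WD40-repeat protein Lethal giant larvae, which opposes atypical protein kinase C at the lateral membrane. It was at 149, 127 and 125 CPM in RasV12 and 103, 93.8 and 105 CPM in GFP-i. The 3 RasV12 libraries were all above the 3 controls, by 1.33-fold on average, but the gene missed the threshold (log2 fold change 0.41 ± 0.13, SE, interval 0.12 to 0.69; edgeR adjusted p = 0.060). It passed without RasV12 replicate 2 (adjusted p = 0.039) and with a filter of 10 CPM in 3 libraries (adjusted p = 0.044), and over all alternatives its adjusted p ran from 0.020 to 0.236. The ratio of l(2)gl to scrib was 0.477, 0.503 and 0.36 in RasV12 and 0.338, 0.285 and 0.325 in GFP-i, without overlap (exact permutation p = 0.1).

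Within the adherens junction, shg rose and arm did not pass. The gene shg (2R, 21049654 to 21057197) encodes E-cadherin, the homophilic adhesion receptor of the junction. It was at 216, 221 and 269 CPM in RasV12 and 136, 188 and 124 CPM in GFP-i. All RasV12 libraries were above all controls, though GFP-i replicate 2 came close to the RasV12 range. The mean rose from 149 ± 33.6 to 235 ± 29.3 CPM (SD, n = 3), a 1.58-fold difference with a 95% interval of 1.205 to 2.06 (log2 fold change 0.66 ± 0.17, SE; edgeR adjusted p = 0.031). The call of shg did not survive leaving out RasV12 replicate 1 or 3 (adjusted p = 0.066 and 0.091), GFP-i replicate 1 or 3 (adjusted p = 0.146 and 0.211), or scaling to the library totals alone (adjusted p = 0.113). Its log2 fold change was 0.48 to 0.81 when 1 library was left out.

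The gene arm (X, 1891401 to 1900646) encodes Armadillo, the fly beta-catenin, which binds the tail of E-cadherin and also carries Wnt signals to the nucleus. It was at 263, 269 and 267 CPM in RasV12 and 267, 251 and 233 CPM in GFP-i. The RasV12 libraries were nearly equal and lay at the upper edge of the control range, with a log2 fold change of 0.09 ± 0.11 (SE, interval -0.17 to 0.35; edgeR adjusted p = 0.660), and it turned to -0.071 when only library totals were used for scaling. The ratio of shg to arm was 0.82, 0.823 and 1.01 in RasV12 and 0.509, 0.748 and 0.535 in GFP-i (exact permutation p = 0.1). The arm gene shares 82 exon bases with mRpL16 on the other strand, which had 1682 counts over all libraries against 21249 for arm, and whether counting used strand is not known here.

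The only member that fell was Fas3 (2L, 18320102 to 18393441), which encodes Fasciclin 3, an immunoglobulin-domain adhesion protein of the lateral membrane that gathers at septate junctions. It was at 636, 588 and 635 CPM in RasV12 and 922, 981 and 900 CPM in GFP-i. The groups were far apart relative to their spread, which was 4.41% of the mean in RasV12 and 4.49% in GFP-i. The level in RasV12 was 0.663 times that in GFP-i, with a 95% interval of 0.56 to 0.785 (log2 fold change -0.59 ± 0.11, SE, n = 3 per group; edgeR adjusted p = 0.0052). The call held without each library in turn (adjusted p = 0.0046 to 0.022) and in every other alternative. In RNA from a sorted population, fewer cells with a transcript and less of it per cell cannot be told apart. Against dlg1, a septate junction scaffold, the ratio of Fas3 was 2.72, 3.27 and 2.51 in RasV12 and 3.94, 3.56 and 3.52 in GFP-i (exact permutation p = 0.1). The 6 ratios given here were chosen after the values were seen, and none can go below that p.

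Among 4984 other genes with a mean of at least 10 CPM, those whose log2 CPM followed Fas3 most closely over the 6 libraries were Nup133, Fs(2)Ket, CG31687, CG1234 and kni, with Pearson r of 0.995 to 0.997. All 5 were lower in RasV12, by a log2 fold change of 0.59 below 0 for Nup133, which encodes a nuclear pore protein, to -1.40 for the transcription factor gene kni. For these genes the groups were apart as for Fas3, so that an r over 6 libraries follows the gap between genotypes, and it is given as a description.

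The spread among replicates had a shared part. Of the 10 genes 5 span over 40 kb (sdt, baz, dlg1, scrib and Fas3), and in all 5 the lowest RasV12 library was replicate 2 and the highest GFP-i library was replicate 2. In 4 of the 5 the highest RasV12 library was replicate 3, and in 4 the lowest GFP-i library was replicate 1. The share of all tested genes with the same lowest and highest libraries was not counted, so these counts are no result about long genes. The same libraries stood apart for other long genes: the mean deviation in log2 CPM of 372 other genes over 40 kb was -0.02, -0.26 and 0.20 in RasV12 replicates 1, 2 and 3 and -0.20, 0.28 and -0.00011 in GFP-i replicates 1, 2 and 3. In 1283 genes under 2 kb, a class that holds none of the 10 genes, it was -0.13 in GFP-i replicate 2 and between -0.06 and 0.08 elsewhere. The shorter gene shg, spanning 7544 bases, was also highest in GFP-i replicate 2 and in RasV12 replicate 3. These lay 0.35 and 0.20 (log2) above their group means. Its lowest libraries were RasV12 replicate 1 and GFP-i replicate 3. The shorter genes crb and par-6 were also lowest in GFP-i replicate 1. For the long gene Fas3 the deviations were small, from -0.07 to 0.07 (log2). What sets the named libraries apart was not tested. With this long-gene deviation as a covariate, an alternative chosen after seeing the data, the log2 fold changes were 1.18 for baz, 0.71 for shg and -0.58 for Fas3, and l(2)gl passed as well at 0.40 (edgeR adjusted p = 3.7e-06, 6.5e-04, 4.0e-04 and 0.020). Over all 9134 genes tested the covariate gave 1251 higher and 972 lower, against 836 and 519 without it, so the added call is not particular to the 10 genes. With RasV12 replicate 3 and GFP-i replicate 2 both left out, baz, shg and Fas3 passed (edgeR adjusted p = 0.020, 0.035 and 0.039). These 2 libraries were picked because they stood apart in these data, so the result is no independent support. For shg, edgeR adjusted p was 0.091 without RasV12 replicate 3 alone and 0.011 without GFP-i replicate 2 alone, its highest control.

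**Figure D3:**
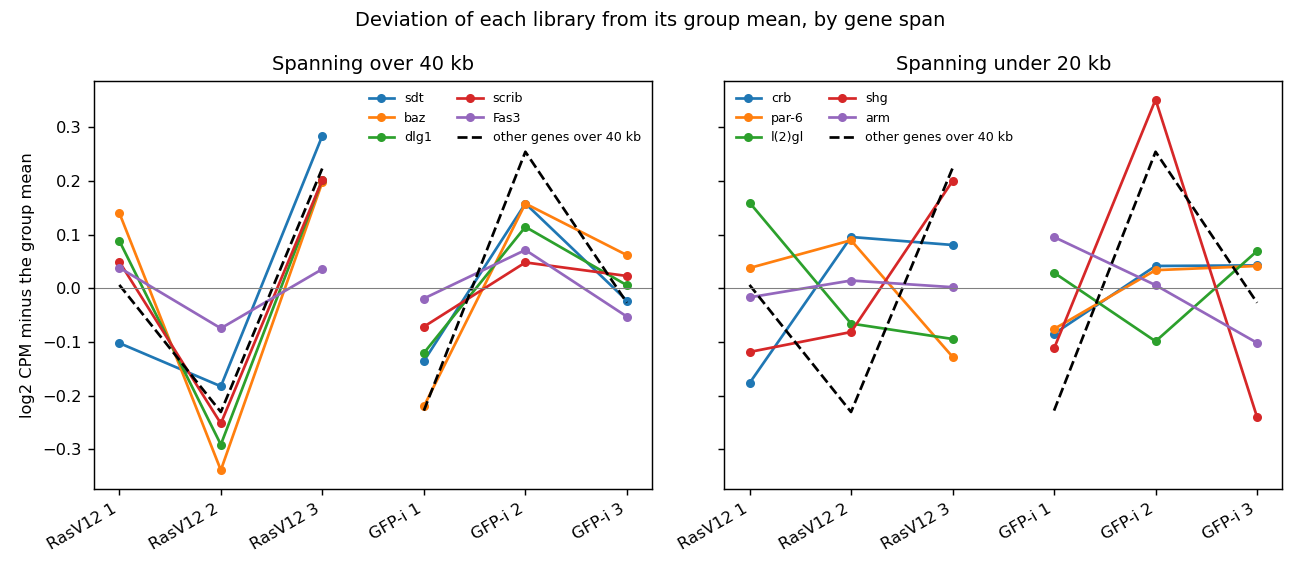
Deviation of log2 CPM from the group mean (vertical axis) in each library, for the 5 genes spanning over 40 kb (left) and the 5 under 20 kb (right). The dashed line is the mean of 372 other genes over 40 kb, and lines only join the points of a gene. The long genes are lowest in RasV12 replicate 2 and highest in GFP-i replicate 2 of their groups. The shorter gene shg is also highest in GFP-i replicate 2.

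Beyond the 10 genes, 14 other polarity regulators were tested. Of these none rose and 1 fell, against 14.8% called over all genes, with a list median of 0.13 (log2). The gene that fell was 14-3-3zeta, one of the fly 14-3-3 proteins that act as Par-5 in polarity and also bind Raf. It was at 947, 872 and 950 CPM in RasV12 and 1769, 1926 and 2288 CPM in GFP-i, and the groups were apart. Its log2 fold change was -1.11 ± 0.13 (SE; edgeR adjusted p = 3.3e-04). The kinase gene aPKC, picked for its role after the values were seen, had a log2 fold change of 0.15 (edgeR adjusted p = 0.479). Without RasV12 replicate 2, 3 regulators rose, beside 943 of all 9465 genes tested.

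Among 17 other adherens junction genes 3 rose, 14 did not pass and none fell, with a median of 0.22. Over all genes 9.15% rose, and 3 of 17 is not read as a result about the list. The gene smash, for the LIM-domain junction protein Smallish, was at 97.3, 110 and 120 CPM in RasV12 and 62.2, 71.8 and 67.1 CPM in GFP-i (log2 fold change 0.70 ± 0.13, SE; edgeR adjusted p = 0.0061). The gene sdk, for Sidekick, an immunoglobulin protein at the points where 3 cells meet, rose from 223 ± 20.2 to 337 ± 21.8 CPM (SD, n = 3; edgeR adjusted p = 0.010). Vinc, for the actin-binding protein vinculin, was at 25.2, 24.0 and 25.9 CPM against 17.3, 15.7 and 18.2 CPM (edgeR adjusted p = 0.035). None of the list passed without GFP-i replicate 1 or without GFP-i replicate 3, where smash had adjusted p = 0.052 and 0.065 and sdk 0.068 and 0.089. Leaving out any 1 library other than RasV12 replicate 2 cost Vinc its call (adjusted p = 0.091 to 0.160). Without RasV12 replicate 2, 5 genes of the list rose, beside 943 of all 9465 genes tested. The sdk gene shares 256 exon bases with CG13362 on the other strand, which had 14 counts in all.

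Of 21 septate junction genes only aka rose, 20 did not pass and none fell, against 14.8% called over all genes, with a median of -0.08. The gene aka encodes Anakonda, which marks the corners where 3 cells meet, and was at 59.1, 87.8 and 76.1 CPM in RasV12 and 36.3, 41.4 and 39.0 CPM in GFP-i. Its log2 fold change was 0.93 ± 0.16 (SE; edgeR adjusted p = 0.0041), a call lost without GFP-i replicate 3 (adjusted p = 0.052). When only library totals were used for scaling, 4 genes of this list of 21 fell, beside 911 of all 9134 genes tested. Of the 6 core planar polarity genes, which orient cells within the sheet, only fz fell (5.68% did over all genes), from 835 ± 97.6 to 532 ± 84.9 CPM (SD, n = 3), and none rose. The gene fz encodes the Wnt receptor Frizzled, its log2 fold change was -0.65 ± 0.15 (SE; edgeR adjusted p = 0.017), and the call was lost without GFP-i replicate 3 (adjusted p = 0.060).

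**Figure D4:**
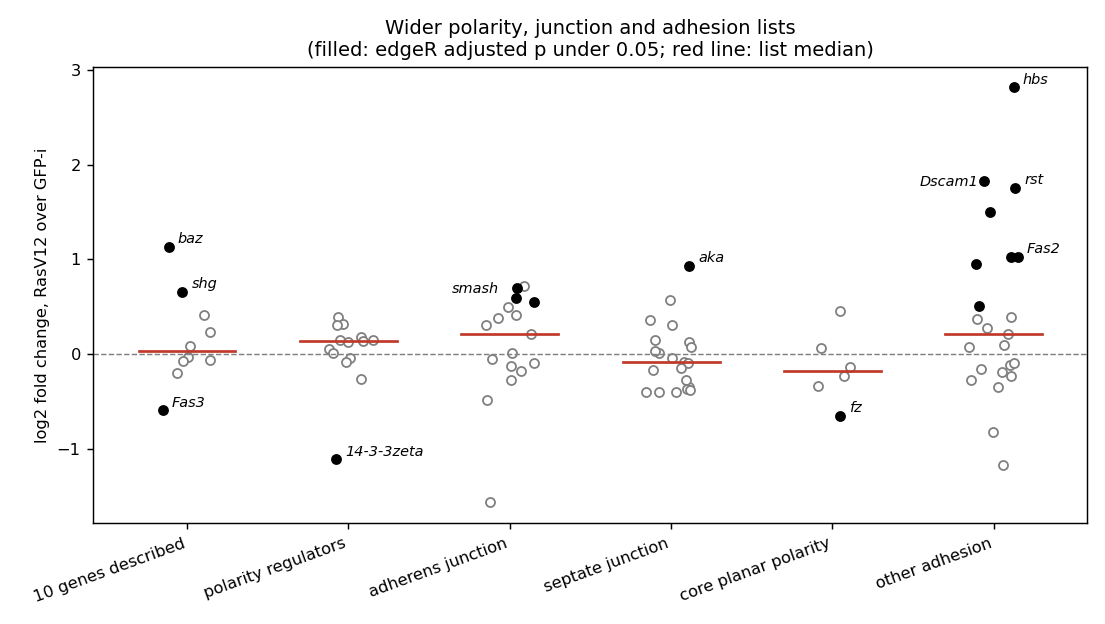
Log2 fold change, RasV12 over GFP-i (vertical axis), of each tested gene in the 10 genes and 5 wider lists. Filled points passed an edgeR adjusted p of 0.05 and red lines are list medians. The list of other adhesion molecules holds 8 genes that rose of 23 (9.15% rose over all genes tested), with hbs highest at 2.81.

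Of 24 other cell adhesion molecules 23 were tested, Cad89D being too low. Of these 8 rose, 15 did not pass and none fell, with a median of 0.21. Over all genes 9.15% rose, and since the list was drawn up with earlier results of these data known, its count is no independent evidence about adhesion molecules. The Fas2 gene, for the NCAM-like protein Fasciclin 2, moved opposite to Fas3: it was at 1967, 1433 and 2227 CPM in RasV12 and 853, 989 and 915 CPM in GFP-i, a 2.04-fold difference (log2 fold change 1.03 ± 0.16, SE; edgeR adjusted p = 0.0023). The ratio of Fas2 to Fas3 was 3.09, 2.44 and 3.51 in RasV12 and 0.926, 1.01 and 1.02 in GFP-i (exact permutation p = 0.1). Fas1, a protein of an unrelated family that shares the name, had a log2 fold change of -0.12 (edgeR adjusted p = 0.623) and was chosen for its name.

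Within this list were 4 genes of the nephrin and Neph1 family, immunoglobulin proteins that bind each other across cell borders and are also used in myoblast fusion. The nephrin-like gene hbs was at 438, 335 and 451 CPM in RasV12 and 59.5, 71.2 and 43.2 CPM in GFP-i, a 7.03-fold difference (log2 fold change 2.81 ± 0.21, SE; edgeR adjusted p = 2.1e-05). Its Neph1-like partners rst and kirre rose by 1.76 ± 0.14 and 1.02 ± 0.12 (log2, SE; edgeR adjusted p = 3.2e-05 and 4.4e-04). The other nephrin-like gene, sns, did not pass (18.0 ± 1.59 CPM against 20.4 ± 1.22 CPM in the controls, SD, n = 3; edgeR adjusted p = 0.493). The rst gene lies inside kirre on the other strand and shares no exon bases with it. Other genes overlap kirre as well, among them w on the other strand, also without shared exon bases. Over all libraries w had 21991 counts against 117957 for kirre, and whether counting used strand is not known here.

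The highly diversified immunoglobulin gene Dscam1 rose from 69.7 ± 9.84 to 247 ± 36.7 CPM (SD, n = 3; log2 fold change 1.83, edgeR adjusted p = 6.3e-05), and the leucine-rich repeat gene trn rose 2.82-fold (edgeR adjusted p = 0.0041). Dscam1 shares 743 exon bases with asRNA:CR45129 on the other strand, which had 234 counts over all libraries against 12832. The calls of hbs, rst, kirre, Fas2, Dscam1 and trn held without each library in turn (highest adjusted p = 0.029).

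In the authors' deposited table, baz had an unshrunken log2 fold change of 1.10, shg 0.62 and Fas3 -0.63. The adjusted p in the authors' deposited table was 3.3e-07 for baz, 0.015 for shg, 5.2e-05 for Fas3 and 0.069 for l(2)gl. The call column of the authors' deposited table marks baz as higher and the other 9 genes as neither. It marks 698 genes in all, with the smallest absolute shrunken log2 fold change at 1.0. The shrunken value was 1.06 for baz, while shg at 0.60 and Fas3 at -0.61 do not reach 1.0.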

How the data were processed

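Per the labels' protocols, libraries were made with the QuantSeq 3' kit and read as 100-nucleotide single reads. Trimmomatic 0.33, STAR 2.3.0e, bedtools 2.17, FastQC and DESeq2 are listed, with build dm6, per the submitters' processing notes. Not given in the sources used here are the counting program, strand setting and annotation. Each deposited count is a whole number per gene, without normalization. The deposited baseMean is a signal, the mean of counts scaled by the authors' DESeq2, and the deposited fold changes are log2 values of the authors' comparison. The deposited test statistic is a score, and the deposited p-value columns are the authors'.

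The test was edgeR 4.0.16 under R 4.3.3 (TMM scaling, filterByExpr, robust quasi-likelihood F tests, two-sided, Benjamini-Hochberg over 9134 genes, threshold 0.05); 5099 genes were too low. Of the rows named as ribosomal RNA and of the mitochondrial chromosome, the shares were 10.1 to 17.3% and 2.16 to 5.31% of counts. Standard errors and 95% intervals were derived from the F statistic. The code was tested on simulated data, where recovered directions and intervals were right but false calls exceeded the nominal share. DESeq2 1.42.0 and limma 3.58.1 (voom) served as alternatives. Coordinates are those of the table; 98.5% of 14018 shared identifiers matched Ensembl release 115, which gave overlaps. Of 124 list entries 123 were matched. Members, lists and most alternatives were chosen with earlier results of these data known. All 10 members were named, and from each wider list up to 6 genes past the threshold, lowest p first; genes named outside this rule are marked or are overlapping genes, sns completing a family. The 95% intervals take in the spread between replicates, while the coefficients of variation given for counting error do not.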

Additional observations from a re-analysis of the deposited data

How the results depend on the processing

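Calls of baz and Fas3 were kept under all 16 alternatives. The number of the 10 genes that rose was 1 instead of 2 with scaling by library size only, with the replicate block and without ribosomal RNA and mitochondrial rows, where shg had adjusted p = 0.113, 0.097 and 0.050, and 1 to 3 when 1 library was left out. Scaling by library size only moved the median of all genes by -0.16 (log2) and gave -0.071 for arm. When 1 library was left out, the log2 fold change ranged from -0.13 to 0.052 for crb, from -0.17 to 0.043 for scrib and from -0.020 to 0.098 for arm, none of which passed. Over all genes, 480 rose and 221 fell with the replicate block, 436 and 242 without RasV12 replicate 3 and GFP-i replicate 2, 437 to 943 and 297 to 578 with 1 library left out, 911 fell with library size only, and 1251 rose and 972 fell with the long-gene covariate, which was chosen after seeing the data. Deviations of same-numbered libraries correlated at -0.03, -0.42 and -0.11. Over all pairs, RasV12 replicate 3 with GFP-i replicate 2 was highest (0.56), followed by RasV12 replicate 2 with GFP-i replicate 1 (0.43). RasV12 replicate 3 with GFP-i replicate 1 was lowest (-0.51). Deviations within a group are tied to each other, so these values cannot show whether the replicate numbers pair the libraries or whether libraries share a batch. With the block sdk, Vinc and fz also lost their calls (adjusted p = 0.071, 0.128 and 0.071). When RasV12 replicate 3 and GFP-i replicate 2 were both dropped, smash, sdk, Vinc, aka and fz lost theirs (adjusted p = 0.063, 0.055, 0.252, 0.056 and 0.068). Vinc lost its call with no filter and with library size only (adjusted p = 0.081 and 0.096). The cause of these changes was not tested. Among the alternative values of single genes and counts of wider lists, 28 lost a call, 3 gained one, 22 counts moved by more than 1.5 times, 4 values changed sign (those of crb, scrib and arm above) and 455 did none of these.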

Other observations

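Of the 10 genes 5 lie on the X chromosome (sdt, baz, par-6, dlg1 and arm), and the labels do not give the sex of the larvae. Genes of the Y chromosome summed to 56.7, 46.5 and 90.1 CPM in RasV12 replicates 1, 2 and 3 and to 61.6, 127 and 81.4 CPM in GFP-i replicates 1, 2 and 3. The male-specific dosage compensation RNA roX1 stood at 684, 432 and 583 CPM in RasV12 and at 421, 612 and 667 CPM in GFP-i. For both measures the groups overlapped. The part of larval sex in the results was not tested.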
